A study of Mus musculus with 3 samples.

Results

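The collagens described here are the chains of collagen VI and collagen VIII and the collagens that sit on the surface of other fibrils. They were taken as 10 of the 32285 genes in the count files, matched by Ensembl ID: *Col6a1*, *Col6a2*, *Col6a3*, *Col6a5*, *Col6a6*, *Col8a1*, *Col8a2*, *Col12a1*, *Col14a1* and *Col16a1*. Wounds in the dorsal skin of male C57BL/6J mice aged 7 to 12 weeks were collected 3, 7 and 14 days after injury, which the methods of the study describe as excisional punch wounds and the series text as incisional. Tissue was pooled over 4 samples, and 1 library of unsorted cells was made per day. Unwounded skin was not analysed here. The labels give 1 strain and name no transgene and no treatment. A difference between days is therefore a difference between single libraries, which has no replicate check, and intervals cover counting error only.

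The products of *Col6a1* and *Col6a2* join with another chain, which is usually the product of *Col6a3* and can be that of *Col6a5* or *Col6a6*, and the assembled molecules form beaded microfilaments around cells and between fibrils. Collagen VIII is a short-chain collagen that forms network-like sheets, is made by endothelial and smooth muscle cells among others, and is known from remodelling vessel walls. Collagens XII and XIV bind along the surface of collagen I fibrils and link them to proteoglycans and tenascins, and collagen XVI is a further fibril-associated collagen of the dermis near the epidermal junction.

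The libraries held 5158, 22924 and 16611 barcodes on Days 3, 7 and 14, with 38133650, 120940799 and 112713257 unique molecular identifiers (UMIs, each 1 captured transcript), and 4360, 19590 and 13510 cells were kept. The 10 genes took 0.131%, 0.485% and 0.529% of all UMIs, and 9 of them had a UMI on Day 3 and all 10 later. Libraries shared few barcodes, 43 between Days 3 and 7, 19 between Days 3 and 14 and 111 between Days 7 and 14. Cells were clustered without the 10 genes and named from standard markers. Fibroblast-like cells numbered 409, 4476 and 6562, or 9.38%, 22.8% and 48.6% of the cells kept, and all 8 fibroblast markers had UMIs in them on every day. Summed over the list, 8 macrophage markers had levels of 74.7, 261 and 84.4 CPM in them (counts scaled to all UMIs of the class) and 7 pericyte markers at 32.9, 61.6 and 60.9 CPM. The depth of fibroblast-like cells differed, with a median of 44272 UMIs per cell on Day 3 against 10292 on Day 7 and 10295 on Day 14, and the libraries also differed in signs of RNA quality, with 13.6%, 5.90% and 12.8% of barcodes over the mitochondrial limit and *Gm42418*, a transcript that overlaps ribosomal RNA, at 3.6%, 11.7% and 6.42% of UMIs. The part of depth and of RNA quality in the differences of level between libraries was not tested.

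The fibroblast-like class was made of different clusters on each day. On Day 3 these were a cluster led by *Saa3* and *Ereg* (239 cells) and a cycling cluster led by *Ube2c* and *Ccna2* (164 cells). On Day 7 a cluster led by *Akr1c18* and *Efhd1* (1868 cells) and the *Saa3*/*Ereg* cluster (1702 cells) were the main ones, and on Day 14 a cluster led by *Mgp* and *Hmcn2* (3591 cells) and one led by *Igfbp2* and *Wfdc12* (1464 cells). A further cluster of 1413 cells on Day 7 and 122 on Day 14 had all 8 fibroblast markers and was led by *Prss35* and *Tnn*, with *Acta2*, a contractile actin of myofibroblasts, and *Col12a1* itself among its 10 leading genes. Because *Crabp1*, a mesenchymal marker, was also among them, it was given no cell type name and is called the *Prss35*/*Tnn* cluster, and it was kept out of the fibroblast-like class. *Crabp1* was at 173 CPM in it on Day 7, and the other markers of the mesenchymal list ran from 0.0656 (*Pappa2*) to 9.45 CPM (*Dkk2*). In mesenchymal-like cells those others ran from 343 (*Wif1*) to 2264 CPM (*Prlr*). The 8 fibroblast markers summed to 97211 CPM in the *Prss35*/*Tnn* cluster and 120355 in fibroblast-like cells of Day 7. With this cluster, fibroblast-like cells would be 30.1% of the cells kept on Day 7 and 49.5% on Day 14. Levels in this cluster, or values with it included, are given beside the results that it moved most.

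The 3 main collagen VI chains are shown first with the sequence before their start sites. Each was at least 2-fold higher on Day 7 than on Day 3 in fibroblast-like cells. *Col6a1* (10:76708792-76726168) and *Col6a2* (10:76595762-76623630) lie near each other on the minus strand of chromosome 10, and *Col6a3* lies at 1:90765923-90843971 on the minus strand (GRCm38, GENCODE vM21). *Col8a1*, whose level followed another course, is on the minus strand at 16:57624258-57754737 and is printed for contrast. The sequences are from RefSeq (GRCm38.p6), 5′ to 3′ on the strand of the gene, and run over chr10:76726169-76726294 for *Col6a1*, chr10:76623631-76623880 for *Col6a2* (the second of its start sites), chr1:90843972-90844221 for *Col6a3* and chr16:57754738-57754987 for *Col8a1*. Capitals mark the letters GGGCGG (the GC box) or their reverse complement.
*Col6a1*: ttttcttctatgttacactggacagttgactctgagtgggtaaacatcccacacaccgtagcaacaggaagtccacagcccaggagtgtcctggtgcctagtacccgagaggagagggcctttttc
*Col6a2*: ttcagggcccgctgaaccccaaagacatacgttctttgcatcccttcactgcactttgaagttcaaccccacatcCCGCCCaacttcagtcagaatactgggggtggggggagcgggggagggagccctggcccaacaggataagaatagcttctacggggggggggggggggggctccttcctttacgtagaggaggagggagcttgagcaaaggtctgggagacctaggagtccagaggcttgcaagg
*Col6a3*: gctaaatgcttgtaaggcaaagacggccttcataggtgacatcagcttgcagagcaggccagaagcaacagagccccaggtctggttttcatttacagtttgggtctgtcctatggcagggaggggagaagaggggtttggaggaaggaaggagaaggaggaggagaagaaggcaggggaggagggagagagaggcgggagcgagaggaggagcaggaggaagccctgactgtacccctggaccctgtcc
*Col8a1*: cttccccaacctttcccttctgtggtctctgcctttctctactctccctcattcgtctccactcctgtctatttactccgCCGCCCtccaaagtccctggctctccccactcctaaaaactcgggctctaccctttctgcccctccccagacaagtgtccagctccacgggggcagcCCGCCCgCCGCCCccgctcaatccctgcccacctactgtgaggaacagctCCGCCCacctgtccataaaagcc

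The printed stretches differ in these letters, which are also found in the windows of other collagens. The *Col8a1* stretch held the GC box letters 4 times, the *Col6a2* stretch once, and those of *Col6a1* and *Col6a3* not at all, while 32.7% of 32851 windows of 250 bases before RefSeq start sites held them at least once. Of the 8 collagens with an entry, 6 had a match, with 3 in the window of the first *Col6a2* start site, 4 for *Col8a2*, 2 for *Col6a6* and 1 each for *Col6a5* and *Col16a1*. In the same windows, both strands read, the letters TATAAA were in 12.4% of all genes' windows, TGANTCA (the AP-1 site) in 6.75% and CATTCC (the TEAD site) in 12.6%. None of these was in the printed stretches, and among these 8 collagens *Col6a1* had 1 AP-1 match in the bases of its window that lie inside the annotated gene and *Col6a2* had 1 TEAD match in the window of its first start site. GC content was 56.0%, 59.2%, 57.2% and 60.8% for the windows of the 4 genes in the order printed, against a median of 52.4% over all windows. A match of letters describes the sequence and shows no binding.

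The core collagen VI chains made up a larger share of the UMIs of fibroblast-like cells on Days 7 and 14 than on Day 3. *Col6a1*, the α1 chain, was at 373 CPM (95% Poisson interval 364 to 381) in the Day 3 library, 1402 (1392 to 1413) in the Day 7 library and 1698 (1688 to 1708) in the Day 14 library. *Col6a2*, the α2 chain, was at 405 (396 to 414), 1246 (1237 to 1256) and 1459 (1451 to 1469) CPM. *Col6a3*, the longest of the 3 chains with most of the von Willebrand factor A-like domains, was at 589 (579 to 600), 1892 (1880 to 1905) and 1747 (1737 to 1757) CPM. The Day 3 library was the low one for all 3 chains, and the counting intervals of no pair of libraries overlapped. Day 7 was above Day 3 by 1.91 for *Col6a1*, 1.62 for *Col6a2* and 1.68 for *Col6a3* on the log2 scale, or 3.76-, 3.08- and 3.21-fold, where the median gene was at -0.26. Day 14 against Day 7 gave 0.28, 0.23 and -0.12, with the median gene at -0.13, so between the later libraries none of the 3 chains differed by 2-fold. These are shares of UMIs and not numbers per cell, since cells of the Day 3 library were deeper. A fibroblast-like cell had a mean of 18.1, 15.1 and 17.9 UMIs of *Col6a1* on Days 3, 7 and 14, 19.6, 13.4 and 15.4 of *Col6a2* and 28.6, 20.3 and 18.4 of *Col6a3*. By UMIs per cell the Day 3 library was thus the highest for all 3 chains, for *Col6a1* only slightly above Day 14.

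**Figure D1:**
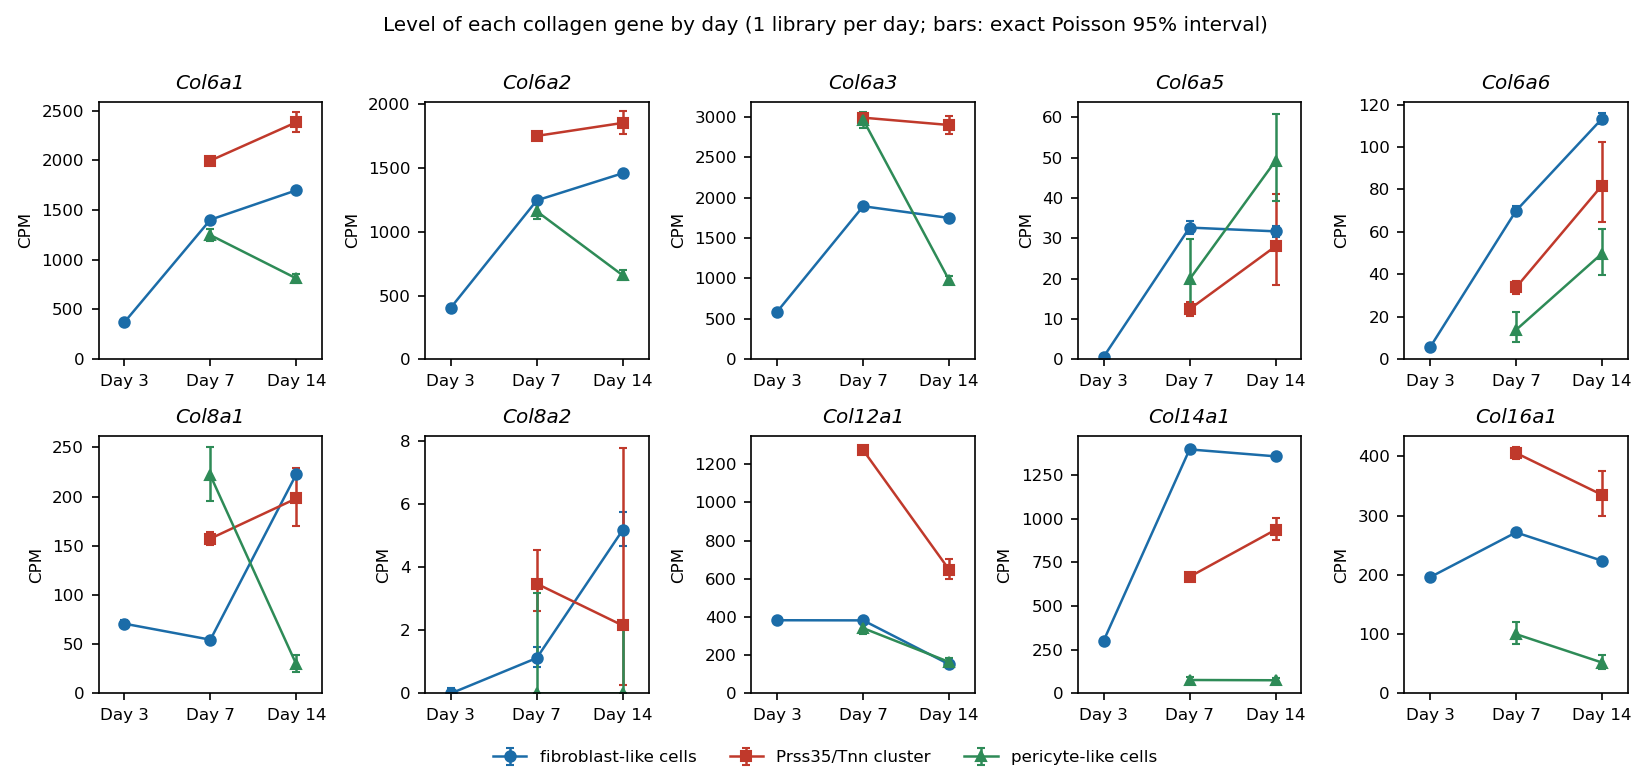
Level of each of the 10 collagen genes (CPM, linear axes from 0) against day, for fibroblast-like cells (circles), the *Prss35*/*Tnn* cluster (squares) and pericyte-like cells (triangles), each point 1 library with its exact Poisson 95% interval and populations of under 50 cells left out. *Col6a1*, *Col6a2*, *Col6a3*, *Col6a5*, *Col6a6* and *Col14a1* were at least 2-fold higher on Day 7 than on Day 3 in fibroblast-like cells, *Col8a1* was highest there on Day 14 (223 CPM), and *Col12a1* in the *Prss35*/*Tnn* cluster (1273 CPM on Day 7) stood above both other populations.

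The ratios between the 3 chains differed between libraries. For every UMI of *Col6a1*, fibroblast-like cells held 1.58 UMIs of *Col6a3* on Day 3 (95% interval 1.54 to 1.63), then 1.35 (1.34 to 1.36) and 1.03 (1.02 to 1.04) on Days 7 and 14. *Col6a2* per *Col6a1* was 1.09, 0.889 and 0.859. The class was made of different clusters on each day, and within the *Saa3*/*Ereg* cluster *Col6a3* per *Col6a1* was 1.45 (1.39 to 1.51) on Day 3 and 1.43 (1.41 to 1.46) on Day 7, with overlapping intervals. In the cycling cluster it was 1.76 (1.68 to 1.83) and 1.56 (1.53 to 1.60). *Col6a2* per *Col6a1* was lower on Day 7 in both clusters (1.02 and 0.896, 1.15 and 0.869). From Day 7 to Day 14 *Col6a3* per *Col6a1* went from 1.2 to 1.07 in the *Mgp*/*Hmcn2* cluster and from 1.10 to 0.859 in the *Akr1c18*/*Efhd1* cluster. The ratio of *Col6a3* to *Col6a1* was also lower on Day 14 than on Day 7 in the *Prss35*/*Tnn* cluster (1.5 and 1.22), in pericyte-like cells (2.37 and 1.2) and in mesenchymal-like cells (3.18 and 1.78). The Day 7 mesenchymal-like ratio rests on 51 UMIs of *Col6a1* in 64 cells, and the summed level of the 8 macrophage markers in this class was 2329 CPM on Day 7, with 1 of them at 0, and 260 CPM on Day 14, with none at 0. In pericyte-like cells the same sum was 487 and 168 CPM. The part of macrophage RNA in these ratios was not tested. The ratio was also lower on Day 14 in macrophage-like (1.23 and 1.06), dendritic cell-like (1.51 and 1.12), endothelial cell-like (1.34 and 0.966) and epithelial cell-like cells (1.41 and 0.971). The intervals of the 2 days overlapped in each of these classes. In T cell-like cells it was 1.32 and 1.51, also with overlapping intervals. These classes therefore do not show whether the lower ratio was particular to classes with high collagen levels. The source of the UMIs in them was not tested. A ratio of UMIs compares capture of 3′ ends of different genes, so only its change between libraries is read here, and not that 1 chain exceeded another.

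The alternative chains were scarce on Day 3. *Col6a5*, the α5 chain, had 12 UMIs in fibroblast-like cells on Day 3, or 0.605 (0.313 to 1.06) CPM, and was at 32.6 CPM on Day 7 and 31.7 on Day 14. *Col6a6*, the α6 chain, was at 5.59 (4.60 to 6.74), 69.9 (67.6 to 72.3) and 113 (111 to 116) CPM. Both genes lie near each other on the minus strand of chromosome 9, at 9:105856078-105960643 and 9:105687809-105828160. Their ratios of Day 7 to Day 3 were the largest of the 9 genes with UMIs in both libraries, with a log2 value of 5.75 (4.95 to 6.71) for *Col6a5* on those 12 UMIs and 3.64 (3.37 to 3.93) for *Col6a6*. From Day 7 to Day 14 *Col6a6* differed by 0.70 and *Col6a5* by -0.04, an interval of -0.14 to 0.05. By UMIs per cell the Day 3 library was low for both genes too, at a mean of 0.0293, 0.351 and 0.335 UMIs of *Col6a5* and 0.271, 0.751 and 1.2 of *Col6a6*. An exon of *Col6a6* overlaps the opposite-strand transcript *Gm38314*. Libraries of this kind keep the strand of a transcript and the counting program uses it by default, but the setting used is not given in the sources used here.

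Collagen VIII followed another course. *Col8a1*, the α1 chain, was at 70.9 (67.2 to 74.7), 54.6 (52.5 to 56.7) and 223 (219 to 226) CPM in fibroblast-like cells of Days 3, 7 and 14. The Day 14 library was the high one, at a log2 ratio to Day 7 of 2.03 (1.97 to 2.09), while Day 7 to Day 3 was -0.38 (-0.47 to -0.28). With the *Prss35*/*Tnn* cluster counted as fibroblast-like, these became 1.49 and 0.16, so the higher level on Day 14 held and the direction of the small difference between Days 3 and 7 did not. In UMIs per cell *Col8a1* had a mean of 3.44, 0.586 and 2.35, so that Day 14 was above Day 7 on this scale as well and Day 3 was the highest. *Col8a2*, the α2 chain (4:126286793-126314330, plus strand), had 0 UMIs on Day 3, which allows up to 0.151 CPM at the limit of 3 counts (exact Poisson upper limit 0.186 CPM), 54 UMIs or 1.12 CPM on Day 7 and 359 UMIs or 5.18 CPM on Day 14. Between Days 7 and 14 it differed by a log2 value of 2.21 (1.79 to 2.65), below the level of 10 CPM that was required before a gene was counted.

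The fibril-associated collagens differed from one another. *Col14a1* (15:55307750-55520803, plus strand), for collagen XIV, was at 301 (294 to 309), 1395 (1385 to 1406) and 1356 (1347 to 1364) CPM in fibroblast-like cells over the same days. *Col12a1* (9:79598991-79718831, minus strand), for collagen XII, was at 383, 382 (377 to 388) and 152 (149 to 155) CPM. *Col16a1* (4:130047840-130099283, plus strand), for collagen XVI, was at 196 (190 to 202), 272 (267 to 276) and 224 (220 to 227) CPM. *Col14a1* was low on Day 3 alone, *Col12a1* was low on Day 14 alone, and *Col16a1* stayed within 2-fold in every pair of days. On the log2 scale, Day 7 stood to Day 3 at 2.21 (2.17 to 2.25) for *Col14a1*, between -0.04 and 0.04 for *Col12a1* and 0.47 (0.42 to 0.52) for *Col16a1*. Day 14 stood to Day 7 at -0.04, -1.33 (-1.36 to -1.29) and -0.28. *Col12a1* had 1.27 (1.23 to 1.32), 0.274 (0.269 to 0.278) and 0.112 (0.11 to 0.115) UMIs for every UMI of *Col14a1*. With the *Prss35*/*Tnn* cluster counted as fibroblast-like, the ratio on Day 7 was 0.489 (0.483 to 0.495) and that on Day 14 was 0.118, so Day 7 still lay between the other days. In UMIs per cell *Col14a1* had a mean of 14.6, 15 and 14.3 on the 3 days, *Col12a1* of 18.6, 4.10 and 1.61 and *Col16a1* of 9.51, 2.92 and 2.36. An exon of *Col14a1* overlaps the antisense gene *1700040F17Rik*, to which the same remark on strand applies.

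Of the 10 genes, 9 reached 10 CPM in at least 1 library of a pair, and 6 were at least 2-fold higher on Day 7 than on Day 3 in fibroblast-like cells, *Col6a1*, *Col6a2*, *Col6a3*, *Col6a5*, *Col6a6* and *Col14a1*, where 5.03% of 8178 genes were. None was at least 2-fold lower, where 10.5% of those genes were. From Day 7 to Day 14, *Col8a1* was the 1 collagen at least 2-fold higher (2.6% of 7695 genes) and *Col12a1* the 1 at least 2-fold lower (4.46%). The median log2 ratio of the 9 counted collagens was 1.68 for Day 7 to Day 3 and -0.04 for Day 14 to Day 7, against -0.26 and -0.13 for all genes counted. With the *Prss35*/*Tnn* cluster included, the same genes passed in each direction, while the ratios of *Col12a1* became 0.64 (0.60 to 0.68) for Day 7 to Day 3 and -1.91 (-1.94 to -1.88) for Day 14 to Day 7.

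Over all barcodes, with no cell class needed, the same 6 genes were at least 2-fold higher on Day 7 than on Day 3 (4.1% of 8625 genes) and none was at least 2-fold lower (7.79%). *Col6a1* was at 210, 1021 and 1282 CPM of the whole library, *Col14a1* at 166, 793 and 987, and *Col12a1* at 209, 388 and 124. *Col6a6* (3.15, 40.5 and 82.7 CPM) and *Col8a1* (40.5, 53.1 and 164 CPM) were the 2 collagens at least 2-fold higher on Day 14 than on Day 7 (4.06% of 8422 genes), and *Col12a1* was lower (6.2%). A whole-library level alone does not separate the share of UMIs from fibroblast-like cells from the level within them, which is given above. Of the UMIs of kept cells, fibroblast-like cells held 19841411 of 35473863 on Day 3. They held 48070796 of 100221245 on Day 7 and 69259725 of 97643515 on Day 14. Their share of kept cells, which differs from their share of UMIs, was 9.38% on Day 3 and 48.6% on Day 14.

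**Figure D2:**
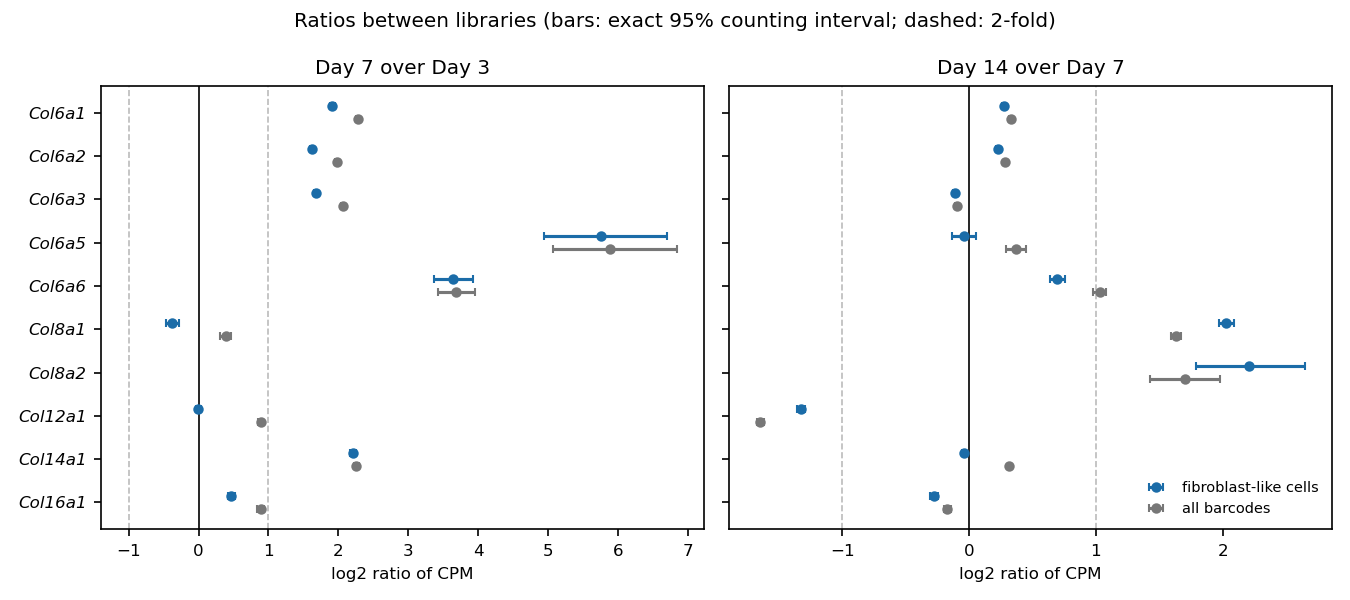
Log2 ratio of CPM between libraries for each collagen gene, Day 7 over Day 3 on the left and Day 14 over Day 7 on the right, in fibroblast-like cells and over all barcodes, with exact 95% counting intervals and dashed lines at 2-fold. The 5 collagen VI genes and *Col14a1* lay above 2-fold on the left, and on the right *Col8a1* (2.03 in fibroblast-like cells) and *Col12a1* (-1.33) lay on opposite sides. *Col8a2* has no point on the left because it had 0 UMIs on Day 3.

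The higher levels of *Col6a1*, *Col6a3* and *Col14a1* on Day 7 were also present inside the 2 clusters that both libraries held, while the difference of *Col8a1* was not. In the *Saa3*/*Ereg* cluster *Col6a1* was at 397 CPM on Day 3 and 1613 on Day 7 (log2 2.02, 1.97 to 2.07), *Col6a3* at 575 and 2315 (2.01, 1.97 to 2.05) and *Col14a1* at 370 and 1323 (1.84, 1.79 to 1.89). In the cycling cluster the same ratios were 2.34, 2.17 and 1.53. *Col12a1*, level over the class as a whole, was higher on Day 7 in both of these clusters, by 0.54 (0.48 to 0.59) in the *Saa3*/*Ereg* cluster and 1.2 (1.14 to 1.26) in the cycling one. *Col8a1*, lower on Day 7 over the class (-0.38), had a ratio of 0.02 (-0.13 to 0.18) in the *Saa3*/*Ereg* cluster and 0.79 (0.65 to 0.92) in the cycling one. The *Akr1c18*/*Efhd1* cluster, which held 3 cells on Day 3 and 1868 on Day 7, had the lowest *Col12a1* level of the Day 7 fibroblast-like clusters, at 91.5 CPM.

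From Day 7 to Day 14, *Col8a1* differed most within the *Mgp*/*Hmcn2* cluster, where it was at 88.8 CPM on Day 7 and 343 on Day 14 (log2 1.95, 1.80 to 2.11). In the *Akr1c18*/*Efhd1* cluster it was at 8.86 and 13.4 CPM. *Col12a1* did not move one way. It was higher on Day 14 in the *Mgp*/*Hmcn2* cluster (138 and 182 CPM, log2 0.40), lower in the *Akr1c18*/*Efhd1* cluster (91.5 and 42.4 CPM, log2 -1.11) and lower in the *Prss35*/*Tnn* cluster (1273 and 647 CPM, log2 -0.98). The core collagen VI chains stayed between -0.17 and 0.38 in these clusters.

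Within a library, the collagens split the fibroblast-like clusters in different ways. A gene was counted where its highest cluster reached 10 CPM. On Day 7, 6 of the 10 genes did so and differed at least 2-fold between the highest and the lowest of 4 clusters of at least 100 cells, where 28.4% of 8520 genes at that level did. On Day 14, 9 of the 10 did, where 29.8% of 8060 genes did. *Col8a2* was not counted on either day, since its highest cluster was at 6.58 and 7.96 CPM. Its ranges were 38.2- and 85.8-fold, on 1 UMI in the lowest cluster of each day. With the *Prss35*/*Tnn* cluster as a further cluster the counts were 7 on Day 7, with *Col16a1* added at 2.14-fold, where 30.9% of all genes tested differed by as much, and 9 on Day 14, where 39% did. Where at least 500 genes per cell were required, 8 clusters were compared on Day 7, and all 10 genes and 71.7% of all genes tested differed at least 2-fold. *Col8a1* ran from 13.4 CPM in the *Akr1c18*/*Efhd1* cluster to 343 in the *Mgp*/*Hmcn2* cluster on Day 14, 25.7-fold. *Col6a5* ran from 1.58 CPM in the *Igfbp2*/*Wfdc12* cluster to 55.9 in the *Akr1c18*/*Efhd1* cluster, 35.4-fold on 21 UMIs in the lower one, and *Col6a6* ran from 15 CPM in the same *Igfbp2*/*Wfdc12* cluster to 143 in the *Mgp*/*Hmcn2* cluster. *Col14a1* was highest in the *Akr1c18*/*Efhd1* cluster on both days, at 1764 and 1787 CPM, where *Col12a1* was lowest. *Col12a1* itself reached 955 CPM in the cycling cluster and 1273 in the *Prss35*/*Tnn* cluster on Day 7. A small cluster of 290 cells led by *Kera* and *Sbspon* on Day 14 had the highest levels of *Col6a1* (2770 CPM), *Col6a2* (2269) and *Col6a3* (3398) among the clusters with fibroblast markers, and the *Prss35*/*Tnn* cluster came next.

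**Figure D3:**
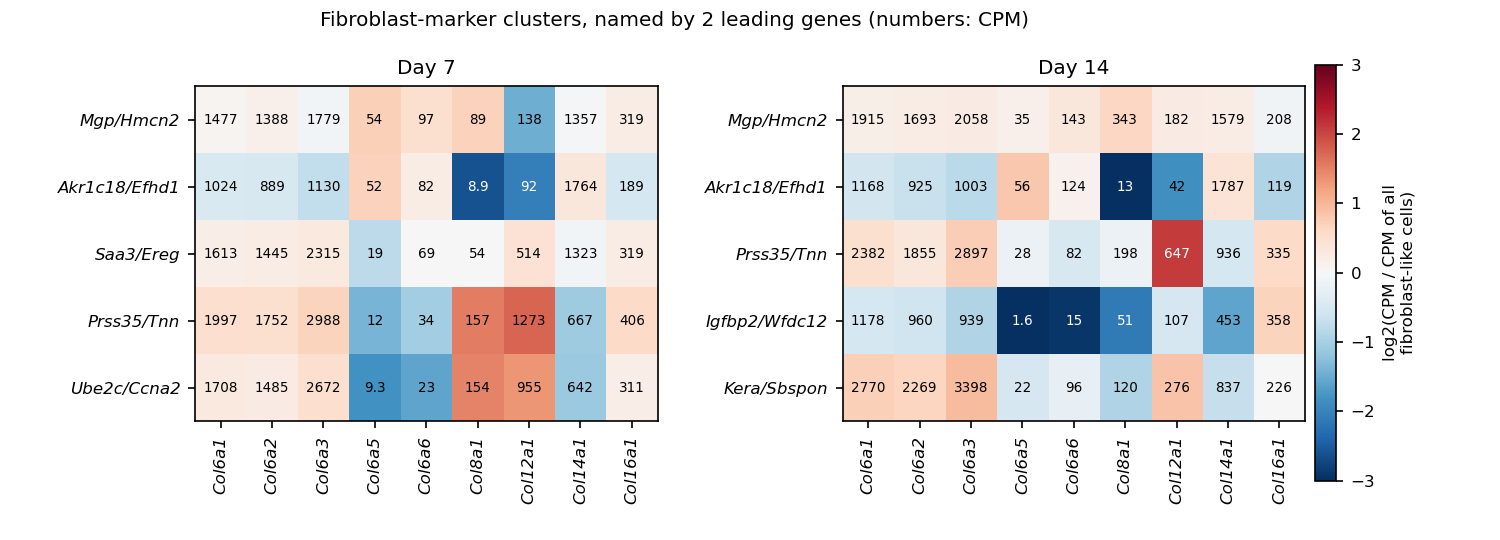
Level of 9 collagen genes in each cluster with fibroblast markers and at least 100 cells, on Day 7 (left) and Day 14 (right). Numbers are CPM and colour is the log2 ratio to all fibroblast-like cells of that day. *Col8a1* and *Col12a1* were low in the *Akr1c18*/*Efhd1* cluster (8.86 and 91.5 CPM on Day 7), *Col14a1* was high in it, and *Col6a5* was low in the *Igfbp2*/*Wfdc12* cluster (1.58 CPM).

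The states of these clusters were described by lists of genes. Summed over 7 myofibroblast genes, the *Prss35*/*Tnn* cluster was highest on Day 7 at 9228 CPM and on Day 14 at 7343, and the *Akr1c18*/*Efhd1* cluster was at 2778 and 2795 CPM. This sum is dominated by *Postn*, which was at 4452 CPM in fibroblast-like cells of Day 7, against 133 for *Acta2* and 51.8 for *Tagln*. The same *Akr1c18*/*Efhd1* cluster was highest for 6 genes of the adventitial or universal fibroblast state, at 2446 and 3221 CPM, and the *Mgp*/*Hmcn2* cluster was highest for 6 remodelling genes, at 5046 and 6127 CPM. The remodelling genes *Mgp*, *Cilp* and *Eln* are among the leading genes of that cluster. In fibroblast-like cells as a class, 3 myofibroblast genes, 4 universal ones and 6 remodelling ones were at least 2-fold higher on Day 7 than on Day 3, and 4 of 6 inflammatory and 3 of 6 cycling genes were lower (5.03% and 10.5% of all genes counted). On Day 14 against Day 7, 4 remodelling genes were higher, 3 myofibroblast, 4 inflammatory and 6 cycling genes were lower (2.6% and 4.46%), and no universal gene was past 2-fold. These lists come in part from the study's account of the same libraries and are no independent evidence of a direction. Across 12 sums of cluster and day, 10 of fibroblast-like clusters and the others of the *Prss35*/*Tnn* cluster, which share libraries, the log levels of *Col6a1* and *Col6a2* had a Pearson correlation of 0.99, those of *Col6a2* and *Col6a3* of 0.96 and those of *Col6a5* and *Col6a6* of 0.96. *Col14a1* was close to *Col6a5* and *Col6a6* (0.95 with each), and its correlation with *Col12a1* was -0.44. Over the 10 sums without the *Prss35*/*Tnn* cluster these values were 0.99, 0.96, 0.96, 0.96 with each and -0.49. They are descriptions of few sums and carry no test.

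The number of cells behind these levels was read after each cell was thinned to 2000 UMIs, which left out 12, 45 and 106 fibroblast-like cells with fewer. A *Col6a3* UMI was then found in 60.7% (55.7 to 65.5), 90.5% (89.6 to 91.3) and 87.5% (86.6 to 88.3) of fibroblast-like cells of the 3 days, and without thinning in 96.3%, 99.1% and 97.5%. All 3 core chains were found together in 18.4%, 70.5% and 74.5% of the thinned cells. Dendritic cell-like and T cell-like cells, blood-derived classes not known as sources of these collagens, are given for comparison, and the source of the UMIs in them was not tested. In dendritic cell-like cells, with medians of 6969, 2992 and 4518 UMIs, the share with all 3 chains was 0% (0 of 214 cells, upper bound 1.71%), 0.103% and 1.77% and the share with *Col6a3* was 0.467%, 13.5% and 12.6%, after 18, 224 and 75 cells were left out. In T cell-like cells, with medians of 1424 and 1867 UMIs on Days 7 and 14, the share with all 3 chains was 2.75% and 4.26% and that with *Col6a3* was 22% and 14.2%, after 276 and 172 cells were left out. Macrophage-like cells, with medians of 4058, 2529 and 3489 UMIs, had all 3 chains in 0% (upper bound 0.173%), 0.481% and 0.603% and *Col6a3* in 0.844%, 15% and 13%, after 582, 3179 and 685 cells were left out. The shares in fibroblast-like cells were above those of these immune classes on each day they were read.

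The thinned share of *Col12a1*-positive fibroblast-like cells was 47.4%, 33.5% and 19.1% on Days 3, 7 and 14, and that of *Col14a1* 40.1%, 85.1% and 78.9%. In dendritic cell-like cells these shares were 0.467%, 4.12% and 1.11% for *Col12a1* and 1.40%, 4.23% and 7.74% for *Col14a1*. The shares depend on the depth, and without thinning they were 93.2%, 63.8% and 46.1% for *Col12a1* and 90.2%, 96.9% and 90.7% for *Col14a1*, and at 500 UMIs per cell 18.1%, 13.4% and 6.23% and 13.4%, 47.7% and 42.8%. The order of the days for *Col12a1* was the same at each depth. Cells with *Col12a1* and no *Col14a1* made up 31.2% on Day 3, 7.52% on Day 7 and 2.80% on Day 14. In the *Prss35*/*Tnn* cluster these were 35.4% and 14.7% on Days 7 and 14. For *Col8a1* the share was 10.3% (7.51 to 13.7), 6.41% (5.71 to 7.17) and 16.0% (15.1 to 16.9), against 0%, 0.545% and 1.93% of macrophage-like cells, the 0% being 0 of 2133 cells with an exact binomial upper bound of 0.173%. Without thinning the *Col8a1* share was 40.3%, 17.8% and 30.3%, and at 500 UMIs per cell 3.18%, 2.23% and 7.30%, so Day 7 was lowest at each depth while the order of Days 3 and 14 changed.

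**Figure D4:**
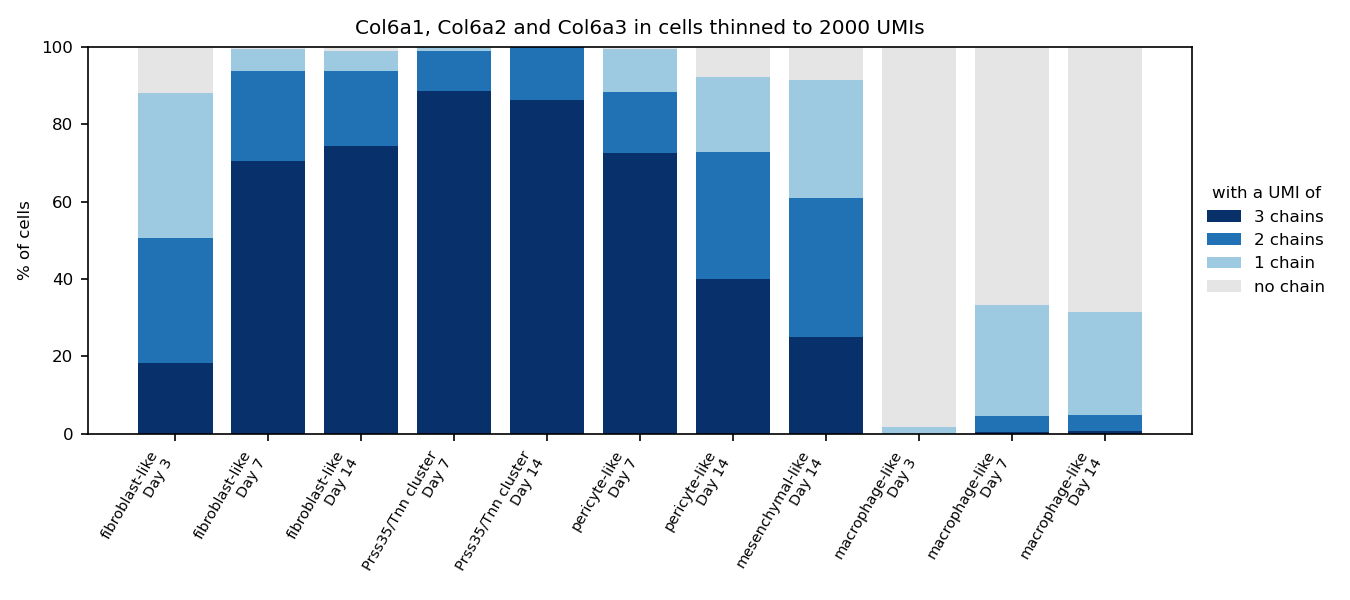
Percent of cells, thinned to 2000 UMIs, with a UMI of all 3, of 2, of 1 or of none of *Col6a1*, *Col6a2* and *Col6a3*, by population and day. Fibroblast-like cells with all 3 went from 18.4% on Day 3 to 70.5% on Day 7, pericyte-like cells were at 72.5% on Day 7 and 40.0% on Day 14, and macrophage-like cells stayed under 1%.

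Among genes with at least 10 UMIs over the classes compared, fibroblast-like cells were the highest named class for 9 of 9 collagens on Day 3 among the 4 classes with at least 50 cells (47% of all such genes), for 7 of 10 on Day 7 among 9 classes (9.67%) and for 8 of 10 on Day 14 among 8 classes (10%). On Day 3 the other classes were macrophage-like, neutrophil-like and dendritic cell-like. Pericyte-like and mesenchymal-like cells were therefore not compared on that day, unlike on Days 7 and 14. The *Prss35*/*Tnn* cluster has no class name and is not among the classes of any day. Set beside the named classes, it was above fibroblast-like cells on Day 7 for *Col6a1* (1997 against 1402 CPM), *Col6a2* (1752 against 1246), *Col12a1* (1273 against 382) and *Col16a1* (406 against 272). The same held on Day 7 for *Col6a3* (2988 against 1892), *Col8a1* (157 against 54.6) and *Col8a2* (3.48 against 1.12). On Day 14 it was above them for *Col6a1*, *Col6a2*, *Col6a3*, *Col12a1* and *Col16a1*. Fibroblast-like cells were then highest for 3 of 10 on Day 7, beside 5.27% of all such genes, and for 4 of 10 on Day 14, beside 5.74%. The 10 pericyte-like cells of Day 3 were under the limit of 50 cells, and in them *Col6a1* was at 1091 CPM, *Col6a2* at 1149, *Col6a3* at 3070 on 900 UMIs and *Col8a1* at 355, all above the fibroblast-like levels. On Day 3 fibroblast-like cells held between 92.0% (*Col6a3*) and 100% (*Col6a5* and *Col6a6*) of the UMIs of these genes in kept cells. On Day 7 they held 65.6% of those of *Col6a1* and 46.7% of those of *Col12a1*, and the *Prss35*/*Tnn* cluster held 29.6% and 49.2%. On Day 14 the fibroblast-like share was between 87.2% (*Col12a1*) and 96.1% (*Col14a1*). Among the named classes the exceptions were mostly pericyte-like cells, which were above fibroblast-like cells for *Col6a3* and *Col8a1* on Day 7 and for *Col6a5* and *Col12a1* on Day 14. For *Col8a2* on Day 7 the highest class was mesenchymal-like on a single UMI.

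Pericyte-like cells, marked by *Rgs5* at 7051 CPM on Day 7 and 7303 on Day 14, had a collagen profile of their own. There were 182 and 427 of them on Days 7 and 14, and the 10 on Day 3 are not described further. *Col6a3* was at 2962 (2863 to 3062) and 978 (932 to 1026) CPM, a log2 ratio of -1.60 (-1.68 to -1.51). *Col8a1* was at 222 (195 to 250) and 29.5 (22 to 38.8) CPM, a log2 ratio of -2.91 (-3.37 to -2.47), while fibroblast-like cells were higher on Day 14. *Col12a1* was at 341 and 164 CPM, *Col6a1* at 1248 and 812 and *Col6a2* at 1161 and 658. The chains that were scarce on Day 7, *Col6a5* (19.8 and 49.2 CPM) and *Col6a6* (13.8 and 49.8 CPM), were higher on Day 14, on 23 and 16 UMIs in the earlier library.

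*Col14a1* set these cells apart from fibroblast-like cells, since it was at 76.7 CPM on Day 7 and 75.3 on Day 14, which is 5.50% and 5.55% of the fibroblast-like level. The 8 fibroblast markers in pericyte-like cells lay at a median of 7.73% (4.22% to 17.4%) of their fibroblast-like level on Day 7 and 7.09% (3.29% to 11%) on Day 14, so *Col14a1* was within the range of those markers, while *Col6a1*, *Col6a2*, *Col6a3*, *Col6a5*, *Col6a6*, *Col8a1*, *Col12a1* and *Col16a1* were above it on both days. The summed level of the 8 markers was 16725 and 12656 CPM in pericyte-like cells against 120355 and 141328 in fibroblast-like cells.

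**Figure D5:**
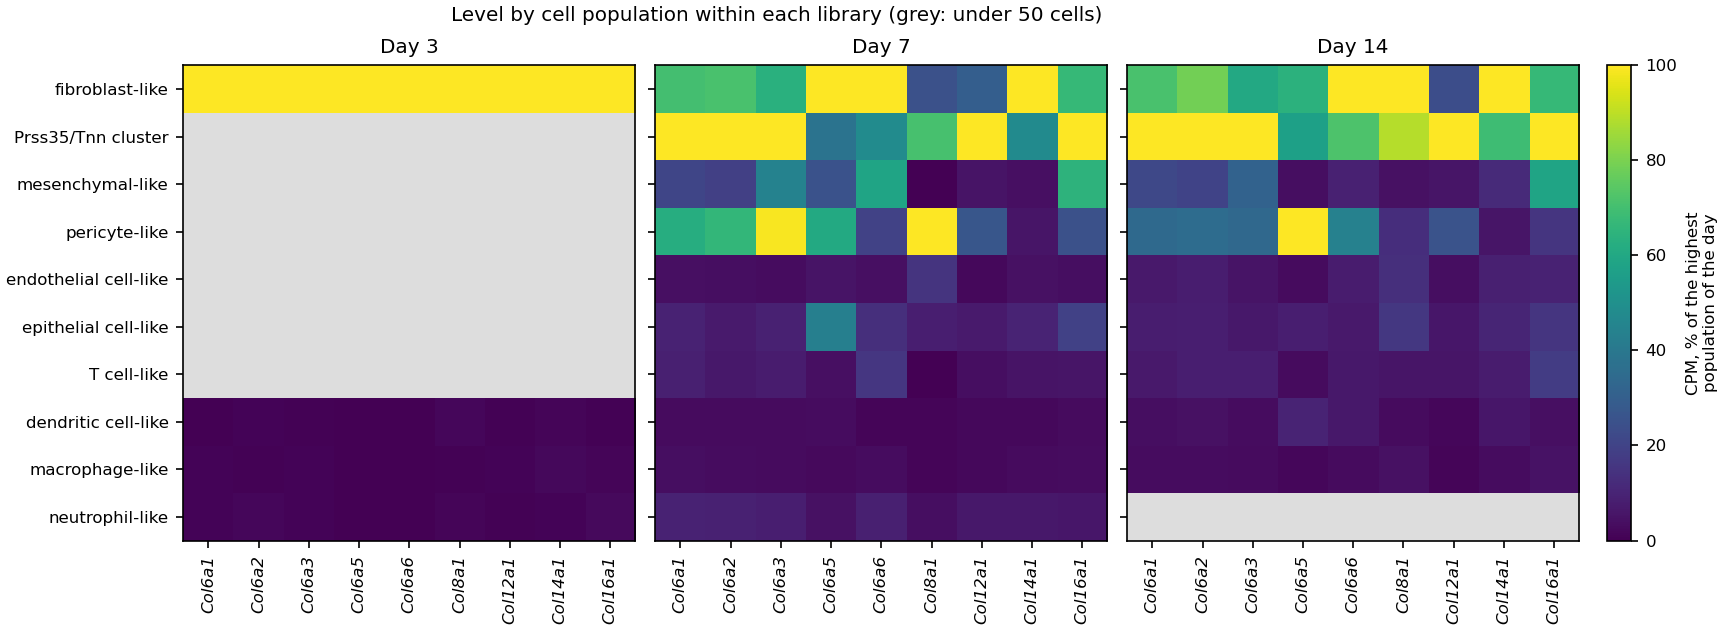
Level of 9 collagen genes in each population of at least 50 cells, as percent of the highest population of that day (colour), with smaller populations in grey. Fibroblast-like cells, the *Prss35*/*Tnn* cluster and pericyte-like cells held the high levels of most genes, mesenchymal-like cells were also high for *Col16a1* (262 CPM on Day 7 and 196 on Day 14), and macrophage-like cells were at 0.837 to 93.2 CPM for these genes on Day 7.

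Mesenchymal-like cells, 64 on Day 7 and 725 on Day 14, were marked by *Bmp4* (801 and 810 CPM) and held the collagen VI core chains and *Col16a1*. *Col6a3* was at 1324 and 914 CPM, *Col6a1* at 417 and 514, and *Col16a1* at 262 and 196, which is 96.3% and 87.4% of the fibroblast-like level. *Col14a1* was at 57.2 and 160 CPM and *Col12a1* at 65.4 and 36.7, and *Col8a1* had 0 UMIs on Day 7 and 22 on Day 14. Of the collagens above 10 CPM in fibroblast-like cells, *Col16a1* was the one closest to the fibroblast-like level on both days. The 8 fibroblast markers lay at 2.48% to 127% of their fibroblast-like level in this class on Day 7 and at 5.08% to 159% on Day 14, with medians of 4.54% and 6.36%, a range too wide to set the collagens against.

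Endothelial cell-like cells (228 and 238 cells on Days 7 and 14) held 33.3 (25.4 to 43.0) and 29.6 (21.3 to 40.0) CPM of *Col8a1*. On Day 7 this was 61.1% of the fibroblast-like level, where the 8 fibroblast markers were at 3.72% to 6.78% of theirs, and the other collagens above 10 CPM in fibroblast-like cells were at 4.04% to 6.51%. On Day 14 it was 13.3% where the markers were at 4.33% to 9.77%, and *Col12a1* at 16.2%, *Col16a1* at 14.5% and *Col6a2* at 10.1% were above that range too, so *Col8a1* stood apart from the other collagens on Day 7 and not on Day 14. In macrophage-like cells the 10 genes were at 0 to 6.35 CPM on Day 3, and *Col6a3* was at 4.62, 93.2 and 83.2 CPM on Days 3, 7 and 14. Relative to fibroblast-like cells these levels were 0.783%, 4.93% and 4.76%, where the fibroblast markers lay at 0.502% to 1.11%, 2.41% to 4.40% and 2.91% to 4.26%. With the *Prss35*/*Tnn* cluster left out of the fibroblast-like level, *Col6a3* was thus within the range of the markers on Day 3 and above all 8 of them on Days 7 and 14. On both later days *Col6a1* (5.42% and 4.62%), *Col6a2* (4.90% and 4.38%), *Col8a1* (5.85% and 4.64%), *Col12a1* (6.71% and 5.41%) and *Col16a1* (4.97% and 7.55%) were above the range as well, and on Day 3 *Col14a1* (2.11%) and *Col16a1* (1.43%) were. In dendritic cell-like and T cell-like cells the 3 chains were above the highest marker on Day 7 as well, at 3.95% to 4.42% against 3.74% and at 8.83% to 12.3% against 7.57%, and below it on Day 14. On Day 7 the left-out cluster was above fibroblast-like cells for *Col6a3* (2988 against 1892 CPM), *Col12a1* (1273 against 382) and *Col8a1* (157 against 54.6). It was below them for each of the 8 markers. With it included, the Day 7 percentages of these 3 collagens would be lower and those of the markers higher. Fibroblast-like cells with it held 136476 UMIs of *Col6a3*, 37756 of *Col12a1* and 5021 of *Col8a1* on Day 7, among 63304885 UMIs. Relative to these levels, the macrophage-like levels of the 3 collagens on Day 7 would be below 4.40%. They would thus no longer be above all 8 markers. Whether the other collagens, and the chains in other classes, would stay above the range was not computed.

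Genes whose level was most like that of each collagen were ranked over 21 sums of named class and day by Pearson correlation of log2(CPM + 1), over genes with at least 50 CPM in any sum. *Col6a1*, *Col6a2* and *Col6a3* ranked each other first and second (0.985 to 0.991), followed by *Aspn*, *Pcolce* and *Cygb*. For *Col14a1* the nearest were *Fndc1*, *Aebp1* and *Tnxb* (0.974 to 0.978), for *Col12a1* *Rian*, *Col5a2* and *Thbs2* (0.953 to 0.956), and for *Col16a1* *Gpr153*, *Dsel* and *Igsf10* (0.965 to 0.972). *Col8a1* was nearest to *Mxra7*, *Prss23* and *Lhfp* (0.897 to 0.922), *Col6a5* to *Cryab*, *Col6a6* and *Pi15* (0.859 to 0.879), *Col6a6* to *Dkk3*, *Islr* and *Col6a1* (0.907 to 0.915) and *Col8a2* to *Bmp7*, *Robo2* and *Fgfr2* (0.815 to 0.852). The sums share libraries and most of their spread is between fibroblasts and other cells.

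Partners of these collagens were read from fixed lists in fibroblast-like cells. Of 10 receptors and binding partners of collagen VI, 7 reached 10 CPM and 3 were at least 2-fold higher on Day 7 than on Day 3 (5.03% of all genes counted), the anthrax toxin receptors *Antxr1* (181 and 382 CPM) and *Antxr2* (40.2 and 123 CPM), which bind collagen VI, and the collagen-binding integrin gene *Itga11* (5.24 and 17.8 CPM). None of the 7 differed by 2-fold between Days 7 and 14, where 2.6% of all genes counted were higher and 4.46% lower. Of 6 partners of the fibril-associated collagens, 4 reached 10 CPM for Days 3 and 7 and 5 for Days 7 and 14. With the same shares of all genes beside them, *Tnxb*, for tenascin-X (121 and 489 CPM), and the proteoglycan gene *Lum* (174 and 1286 CPM) were at least 2-fold higher on Day 7 than on Day 3, *Tnc*, for tenascin-C, was lower on Day 14 than on Day 7 (515 and 160 CPM, log2 -1.69), and *Fmod*, for fibromodulin, was higher (2.83 and 21.4 CPM).

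Among 11 fibrillar collagens, 8 reached 10 CPM for Days 3 and 7 and only *Col3a1*, for collagen III, was at least 2-fold higher on Day 7, where 5.03% of all genes were (17532 and 35884 CPM, log2 1.03). *Col1a1*, for the α1 chain of collagen I, was at 22603, 42694 and 52364 CPM on the 3 days. From Day 7 to Day 14, *Col5a3* (918 and 376 CPM), *Col24a1* and *Col27a1* were at least 2-fold lower and *Col11a1* at least 2-fold higher, among 9 that reached 10 CPM and where 4.46% and 2.6% of all genes were. The core collagen VI chains therefore differed more between Days 3 and 7 than the collagen I and III genes, whose log2 ratios were 0.92 for *Col1a1*, 0.53 for *Col1a2* and 1.03 for *Col3a1* against 1.62 to 1.91, in the same libraries and with no replicate. None of 8 further collagens of the same groups, such as *Col6a4*, *Col9a1* and *Col10a1*, reached 10 CPM, and the highest was *Col9a3* at 1.48 CPM.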

How the data were processed

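Single-cell RNA libraries of wound tissue were built by the Chromium 3′ v3.1 protocol and read on a DNBSEQ-G400RS instrument. The authors deposited raw UMI counts per gene and barcode, 1 matrix per day, made with Cell Ranger 6.0.0 on mm10 according to the submitters' processing notes. No filter on cells and no normalisation had been applied to these counts after cell calling. An Ensembl ID gave a symbol for 32158 of the 32285 genes. Coordinates are from GENCODE vM21 (GRCm38), and sequences before start sites from RefSeq (GRCm38.p6).

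Cells with at least 200 genes, 500 UMIs and at most 10% mitochondrial UMIs were kept. Doublets were scored in each library against simulated ones over 50 neighbours, and the highest scores were removed up to 0.5 of the rate expected at 0.8% per 1000 barcodes, which took 92, 1978 and 962 cells. The libraries were clustered together without alignment (2000 variable genes, 30 components, 15 neighbours, Leiden resolution 1, 31 clusters), and 125 genes, the 10 collagens among them, were never used to cluster. A cluster took a class name from at least 3 markers, each in at least 10% of its cells and exceeding the 25% quantile of clusters by at least 1 on the log2 scale, unless a second class reached 0.8 of its score, its 10 leading genes held more markers of another class, or it had few UMIs. These limits were set after the clusters were seen. The mesenchymal markers were taken from the study's own table of clusters in the same libraries. The genes, lists and markers were chosen with earlier results of these data known. The text names all 10 collagens, the leading genes of each cluster, genes past 2-fold of the lists of partners and of fibrillar collagens with the most abundant fibrillar collagens, and the 3 genes most like each collagen. Of the 5 lists of fibroblast states, counts past 2-fold and, for 3 of them, summed levels over clusters are given, with no gene named for its change.

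CPM were computed from UMIs added up over the cells of a class in a library, with exact Poisson intervals. Ratios have exact conditional binomial intervals and shares Clopper-Pearson intervals, all at 95%, and these cover counting error alone. Since each day has 1 library, no test was run. A gene was counted where it reached 10 CPM in 1 of the pair of libraries, and classes were compared from 50 cells and clusters from 100. On simulated Poisson counts with known changes, the intervals held the true ratio for about the stated share of genes. This checks the calculation only, since spread between cells and between mice was not simulated. Alternatives were other scalings, weights of cells, limits on cells, doublet settings, resolutions and class rules, with a few added after the data were seen. Python 3.11.15, numpy 2.4.6, scipy 1.17.1, pandas 2.3.3, scikit-learn 1.9.0, python-igraph 0.11.9 and matplotlib 3.10.9 were used.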

Additional observations from a re-analysis of the deposited data

Results flagged for a closer look

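Some collagens differed in opposite directions between Day 7 and Day 14 in different cell classes, and in each case the difference was not tested, since each class of each day was 1 library. *Col8a1* had a log2 ratio of Day 14 to Day 7 of 2.03 in fibroblast-like cells and 1.70 in macrophage-like cells against -2.91 in pericyte-like cells. The macrophage-like level was 3.19 CPM on Day 7 and 10.3 on Day 14, or 5.85% and 4.64% of the fibroblast-like level of the same library, where the 8 fibroblast markers lay at 2.41% to 4.40% and 2.91% to 4.26%. The *Prss35*/*Tnn* cluster, at 157 CPM of *Col8a1* on Day 7, was not part of that fibroblast-like level. With it included, the macrophage-like level of Day 7 would be below 4.40% of the fibroblast-like level and no longer above all 8 markers. *Col6a5* had a log2 ratio of 1.31 in pericyte-like cells against -1.77 in epithelial cell-like cells, the latter on 6 UMIs in 51 cells on Day 7. *Col6a6* had a log2 ratio of 1.85 in pericyte-like cells against -2.0 in mesenchymal-like cells, the latter on 5 UMIs in 64 cells on Day 7.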

How the results depend on the processing

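No paired analysis was possible because each day was 1 library and the labels give no second sample of any day. Of 114 counts of collagens recomputed under an alternative, 111 stayed within 1.5 times the reported count. With the *Prss35*/*Tnn* cluster set beside the named classes, an alternative chosen after seeing the data, fibroblast-like cells were highest for 3 collagens in place of 7 on Day 7 and for 4 in place of 8 on Day 14. The other exception was the number of collagens at least 2-fold apart between the highest and lowest fibroblast-like cluster on Day 7, which was 10 in place of 6 when at least 500 genes per cell were required, where 8 clusters were compared in place of 4 and 71.7% of all genes tested passed in place of 28.4%. Of 285 log2 ratios recomputed in fibroblast-like cells, none that was past 2-fold changed sign, and no collagen crossed 2-fold. The log2 ratio of Day 14 to Day 7 ran from 1.49 to 2.36 for *Col8a1* and from -1.92 to -1.19 for *Col12a1*. Small differences did turn: *Col8a1* for Day 7 to Day 3 ran from -0.49 to 0.23 and *Col12a1* from -0.10 to 0.64, and *Col6a5* and *Col14a1* for Day 14 to Day 7 had the other sign in 8 settings each and *Col6a3* in 2. Scaling without the 50 most abundant genes moved the median of all genes for Day 7 to Day 3 in fibroblast-like cells from -0.26 to -0.04, and over all barcodes the count became 8 collagens, with *Col12a1* and *Col16a1* added, where 11.5% of all genes tested passed in either direction. Fibroblast-like cells were highest for 6 collagens on Day 14 under 4 settings, without *Col8a1* and *Col16a1*, where 7.67% to 8.03% of all genes counted were highest in them, and for 9 under 2 scalings, where *Col12a1* was added and 11.9% and 13.5% of all genes were. Of 60 shares of cells, 55 moved with the depth they were thinned to. Precision is set by UMIs, which are few for *Col8a2* and, on Day 3, for *Col6a5*.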

Other observations

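A further unnamed cluster, of 98, 373 and 400 cells on Days 3, 7 and 14, had all 8 fibroblast markers but few UMIs per cell (medians of 842, 990 and 1128). Its *Col6a1* levels were 113, 756 and 1333 CPM and its *Col8a1* levels 45.2, 57 and 204 CPM.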
